A study of Mus musculus with 12 samples.

Results

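The transcripts described here are the long noncoding entries of the NONCODE catalogue that the array carried. They were chosen by name: every probe outside the controls whose name starts with NONMMUT was taken, with no measured value used, which gave 28773 of the 97836 probes (29.4%). NONCODE is a database that collects noncoding RNAs from many sources and gives each mouse transcript a running number after the letters NONMMUT. Most long noncoding RNAs carry no open reading frame that is known to be translated, are expressed at lower levels than messenger RNAs, and differ more between tissues. A few of them, transcribed near hypoxia-responsive genes or bound by the factors that regulate these, are known to change when oxygen falls, but for most catalogue entries no function is known, and none is given below for a transcript.

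The cells were vascular smooth muscle cells (VSMCs), the contractile cells of the vessel wall, cultured from male mice in smooth muscle cell medium with 10% fetal bovine serum, and 4 groups of 3 samples were hybridised to 12 arrays. The floxed group treated with PBS (floxed PBS) came from Hif1afl/fl mice, in which the gene of the oxygen-sensing factor HIF-1α is flanked by recombination sites and intact, and received phosphate-buffered saline for 24 h. The floxed CoCl2 group came from the same genotype and received 150 µM cobalt chloride for 24 h, a salt that stabilises HIF-1α in normal oxygen. The deleted PBS and deleted CoCl2 groups came from Hif1a△SMC mice, in which Hif1a was disrupted in smooth muscle cells, and received the same agents at the same dose and time. The labels name neither the Cre line nor the share of cells that lost the gene, and they do not say whether the 3 samples of a group came from separate mice or cultures, so the p-values below rest on the variation among the arrays of a group, part or all of which may be technical. No probe carries the name Hif1a, and no marker of smooth muscle or of another cell type could be assessed among the named probes, so neither the deletion nor the cell type was checked on these arrays. Genome positions and sequences of the transcripts were not analysed here.

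A level is given as the log2 of the processed signal minus the 75th percentile of all probes on that array, so 0 is the level of the probe at that percentile. Each change is a difference of such levels. It compares a transcript with the rest of its own array and not with the amount of RNA per cell. The 75th percentile itself was 9.37 ± 0.165 (SD, n = 3) on the log2 signal scale in floxed PBS, 9.26 ± 0.146 in floxed CoCl2, 9.07 ± 0.0769 in deleted PBS and 8.17 ± 0.102 in deleted CoCl2. The 3 deleted CoCl2 arrays were thus about 1 log2 unit dimmer than the others. Between arrays of 1 group the levels of the 28773 transcripts correlated at 0.961 to 0.990 (Pearson's r, across transcripts). Group and slide were partly confounded over the 3 slides. All 3 floxed PBS arrays shared slide 1 with floxed CoCl2 array 1, and all 3 deleted CoCl2 arrays shared slide 3 with deleted PBS array 3. The remaining floxed CoCl2 and deleted PBS arrays, 2 of each, were on slide 2. The scan of deleted CoCl2 array 2 was 4 days later than that of all 11 others. Without this array 10800 transcripts passed the test described below for CoCl2 in deleted cells, in place of 10843, and 5708 in place of 4446 for the difference between the genotypes.

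Probes of the E1A spike-in controls, RNA added to each sample, moved apart on the deleted CoCl2 arrays. On the log2 signal scale, before scaling, the 10 probes changed by -3.18 to 0.20 from deleted PBS to deleted CoCl2, and 4 of them fell by over 1. The probe named a107 went from 7.58 ± 0.22 (SD, n = 3) to 4.398 ± 1.39, with 3.10, 5.87 and 4.22 on the 3 arrays, and a22 from 11.4 ± 0.28 to 9.25 ± 0.23, while n9 stood at 12.1 ± 0.15 and 12.2 ± 0.52. In floxed PBS a107 stood at 8.90 and a22 at 11.9. The falls of transcripts in deleted CoCl2 given below were thus measured on arrays where some of these control probes fell as well. The part of this in the results was not tested.

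Fewer NONCODE transcripts than other probes were detected on every array, and the fewest on the 3 arrays of deleted CoCl2. A probe counted as detected when the scanner software marked all its kept spots as well above background. In floxed PBS 69.7% ± 2.80 (SD, n = 3) of the 28773 transcripts were detected, in floxed CoCl2 73.6% ± 8.72, in deleted PBS 70.5% ± 0.879 and in deleted CoCl2 49.1% ± 4.04. The deleted CoCl2 arrays ranged from 45.7% to 53.6% and lay below all 9 others, of which the lowest, a floxed CoCl2 array, had 64.3%. Other probes were detected at 73.3% ± 2.15, 76.6% ± 7.07, 74.4% ± 0.922 and 57.1% ± 3.17 in the same order. The gap between the classes was 3.55 ± 0.684, 3.01 ± 1.65 and 3.83 ± 0.0998 percentage points in the first 3 groups and 7.92 ± 0.881 points in deleted CoCl2, where its lowest value (7.03) was above the highest of the other 9 arrays (4.79). No test was made of these shares, which are not matched on signal. Since the deleted CoCl2 arrays were also the dimmest, loss of a transcript and loss of signal on the array cannot be told apart.

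**Figure D1:**
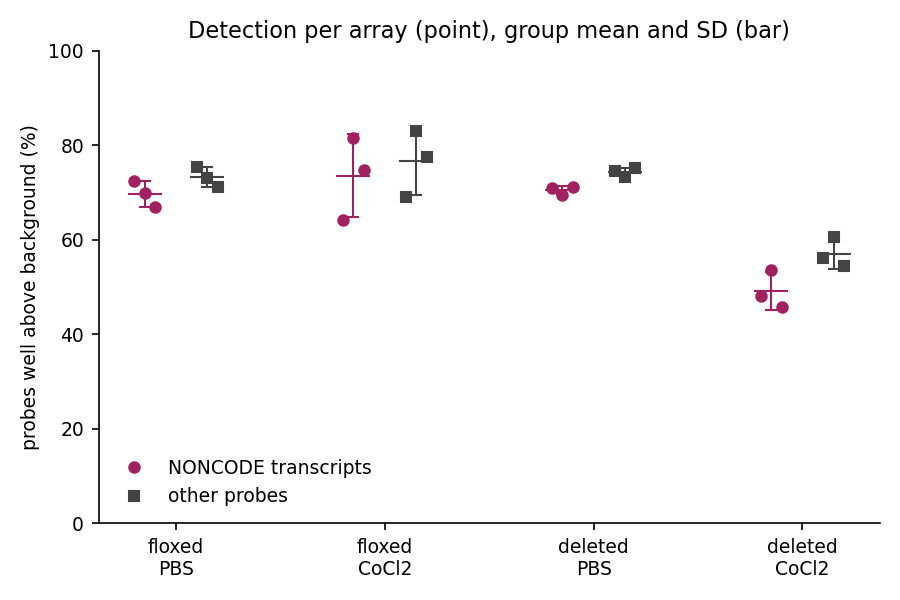
Share of probes marked well above background (%, vertical axis) on each array of the 4 groups (horizontal axis), for NONCODE transcripts (circles) and other probes (squares). Each point is 1 array and each bar the group mean with its SD; the 3 deleted CoCl2 arrays, at 45.7% to 53.6% of transcripts, sit below the other 9.

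On all 12 arrays 12012 transcripts (41.7%) were detected, against 50.9% of other probes, and 3549 (12.3%) were detected on no array. A further pattern concerned 1930 transcripts (6.71%, against 4.86% of other probes) that were detected on all 9 arrays outside deleted CoCl2 and on none of the 3 deleted CoCl2 arrays. From deleted PBS to deleted CoCl2, 2683 transcripts went from detection on all 3 arrays to detection on none, and 0 went the other way. The loss concerned 9.32% of the transcripts and 7.01% of other probes. The shares in this paragraph are not matched on signal. Transcripts were dimmer: their median level averaged -2.40 over the floxed PBS arrays, against -1.79 for other probes. In floxed cells the same comparison gave 4 lost (0.0139%, against 0.0188% of other probes) and 24 gained (0.0834%, against 0.0854%). Between the genotypes under PBS 48 were lost (0.167%, against 0.0854%) and 47 gained (0.163%, against 0.184%) with the deletion. Under CoCl2 2411 were lost (8.38%, against 6.19% of other probes) and 2 gained.

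Beside other probes of like signal, the transcripts were lower in both groups of deleted cells. All probes were sorted into 20 bins by their mean level in the floxed PBS arrays, the bins holding equal numbers of NONCODE transcripts, and the median level of other probes in a bin was taken from that of the transcripts. Averaged over the bins, the transcripts lay -0.016 ± 0.0086 (SD, n = 3) log2 units from the other probes in floxed PBS, the group that set the bins, and 0.0068 ± 0.029 in floxed CoCl2. The offset was -0.074 ± 0.014 in deleted PBS and -0.13 ± 0.013 in deleted CoCl2. The 3 deleted CoCl2 arrays lay below the 3 deleted PBS arrays, and these below all 6 floxed arrays. Loss of detection from deleted PBS to deleted CoCl2 was most frequent in bins 7 to 11, counted from the lowest level. There 18.7%, 31.0%, 31.0%, 29.3% and 23.6% of the transcripts were lost, against 18.6%, 27.9%, 30.7%, 28.8% and 22.9% of other probes. In the remaining bins both orders occurred.

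The offset was largest among transcripts of high signal. For deletion under CoCl2, the median change of transcripts and other probes differed by at most 0.14 log2 units in either direction in the 14 bins of lowest level, and by -0.24 to -0.69 in the 6 bins of highest level. In the next to highest bin, 1439 transcripts had a median change of -0.16 and 5670 other probes one of 0.53. For CoCl2 in deleted cells the 2 medians in that bin were -0.20 and 0.12, and for deletion under PBS -0.057 and 0.18, whereas for CoCl2 in floxed cells they were 0.0019 and -0.026. Of the transcripts of the lowest bin, 0.0695% were detected on all 3 arrays of at least 1 group. Their median change was 1.103 with CoCl2 in deleted cells, and other probes in that bin had one of 1.102. Near the floor of the signal, a level relative to the 75th percentile moves with that percentile, and no change in RNA can be read there. Floxed PBS arrays both set the bins and enter 2 of these comparisons.

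**Figure D2:**
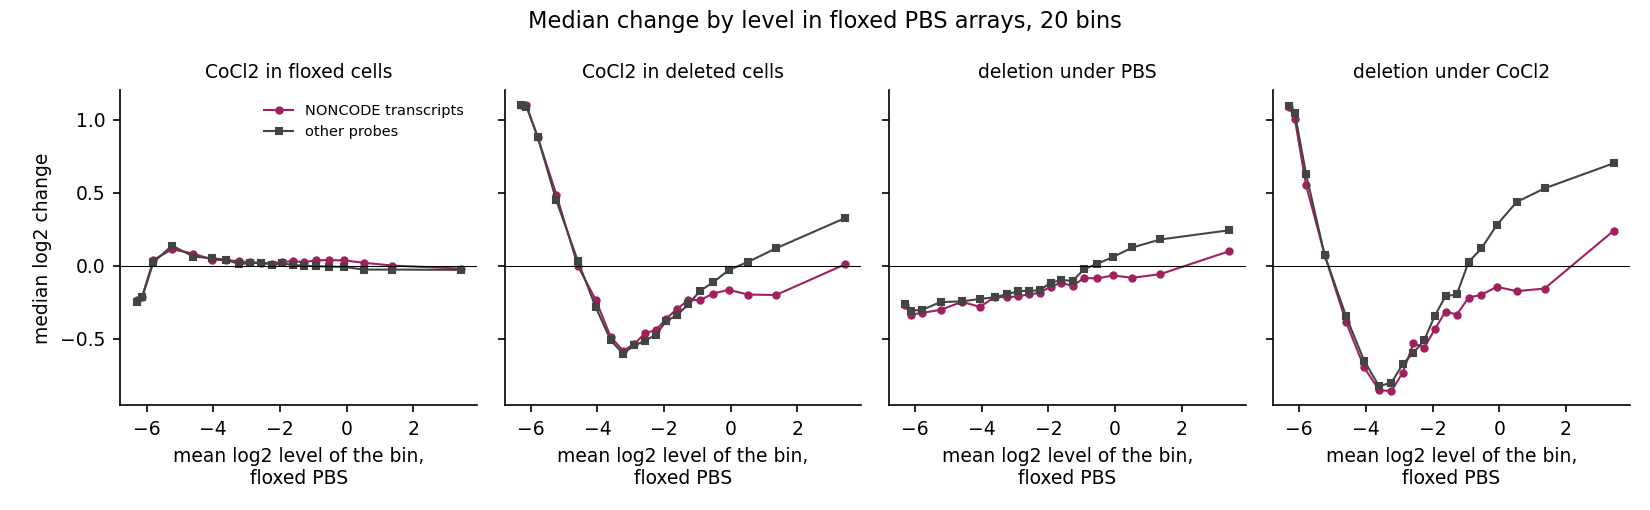
Median log2 change (vertical axis) of NONCODE transcripts (circles) and other probes (squares) in 20 bins of the mean log2 level in floxed PBS arrays (horizontal axis), for 4 comparisons. The 2 lines run together at low levels and part at high levels for the comparisons that involve deleted cells, by up to -0.69 for deletion under CoCl2.

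Tests were made with limma on the 70909 probes detected on all 3 arrays of at least 1 group. Of the transcripts, 20097 entered, and the other 8676 were too dim in every group. A transcript was called where the Benjamini-Hochberg adjusted p over all 70909 probes was below 0.05.

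CoCl2 changed few NONCODE transcripts in floxed cells. Of the 20097 tested, 382 rose and 316 fell, where 2.21% of all probes tested rose and 2.73% fell, and 220 and 215 of them changed by at least 2-fold. The median change over the tested transcripts was 0.030, and over all probes tested 0.0086. Set beside other probes of like signal, 1.33% of all 28773 transcripts rose against 1.54%, and 1.098% fell against 2.02%. The counts depended on single arrays: the total of 698 dropped to 421, 265 or 326 without floxed PBS array 1, 2 or 3 and to 396 or 196 without floxed CoCl2 array 2 or 3. With slide as a fixed block, 32 rose and 102 fell. For the CoCl2 changes such a block leaves floxed CoCl2 array 1 against the 3 floxed PBS arrays, and deleted PBS array 3 against the 3 deleted CoCl2 arrays. Estimates moved either way with it: in floxed cells NONMMUT073304 went from -1.50 to -1.73 and NONMMUT046222 from -1.61 to -0.85. The part of fewer arrays in the calls lost with this block was not tested. The split between higher and lower turned over when arrays were scaled to the E1A control probes: with all 10 of these probes 122 rose and 204 fell, and with the 6 that were well above background and not saturated 127 rose and 292 fell. Within slide 1, which sets floxed CoCl2 array 1 against the 3 floxed PBS arrays, the changes of all 382 and all 316 had the direction of the call; these arrays also took part in the call.

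Under the 6 scalings tried, the median change of all probes tested ran from -0.15 to 0.016 for CoCl2 in floxed cells, -0.48 to -0.0077 for CoCl2 in deleted cells, -0.12 to 0.25 for deletion under PBS and -0.25 to 0.48 for deletion under CoCl2, and changes are relative to it.

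Most of these changes were shared by the cells labelled as lacking Hif1a. Among the 382 that rose in floxed cells, 348 (91.1%) were called higher with CoCl2 in deleted cells as well, or 10.5% of the 3310 rises there. Of the 316 that fell, 225 (71.2%) also fell in deleted cells, which is 2.99% of 7533. The 2 comparisons have no array in common. Other probes gave shares of 93.8% and 64.9%. Among the 12012 transcripts detected on all 12 arrays, 297 rose and 112 fell in both genotypes. The same counts for other probes are not given here, so these describe the transcripts without a comparison.

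The transcript with the highest shared rise was NONMMUT071895. Its levels were -1.65, -1.11 and -1.08 in floxed PBS and 1.83, 2.18 and 2.45 in floxed CoCl2, and -1.06, -1.104 and -1.46 in deleted PBS and 2.68, 2.74 and 1.86 in deleted CoCl2. All 6 CoCl2 arrays lay above all 6 PBS arrays. The change was 3.43 (SE 0.27, limma adjusted p = 0.000121) in floxed and 3.64 (SE 0.27, adjusted p = 1.3e-05) in deleted cells, and the difference of the changes, 0.20, was not called (SE 0.38, adjusted p = 0.718).

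NONMMUT066177 behaved likewise from a higher start. It stood at 0.30, -0.20 and 0.23 in floxed PBS, 3.49, 3.20 and 2.99 in floxed CoCl2, 1.11, 0.51 and 1.5 in deleted PBS and 3.82, 3.89 and 3.93 in deleted CoCl2. It rose by 3.11 (limma adjusted p = 0.000122) and 2.84 (adjusted p = 2.47e-05). Next by the smaller of the 2 changes were NONMMUT045070, with 2.82 in floxed and 3.44 in deleted cells, NONMMUT010574, with 2.41 and 2.97, and NONMMUT046849, with 2.34 and 2.52. The floxed call of NONMMUT045070 was lost without floxed PBS array 2 or 3 (adjusted p up to 0.0657); the other 4 kept their calls in both genotypes under every alternative tried, slide as a block included.

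Among the transcripts that fell in both genotypes, NONMMUT059027 had levels of -0.54, -0.61 and -0.74 in floxed PBS against -2.58, -2.31 and -3.24 in floxed CoCl2, and -0.67, -0.71 and -0.41 in deleted PBS against -2.67, -3.36 and -1.64 in deleted CoCl2. Limma's estimate was -2.08 in floxed cells (adjusted p = 0.00835) and -1.96 in deleted cells (adjusted p = 0.00118), both falls. NONMMUT045639 fell by 2.22 and 1.80, NONMMUT019644 by 1.72 and 2.05, NONMMUT051960 by 2.01 and 1.71 and NONMMUT046211 by 1.69 and 1.66. NONMMUT019644 was also lower with the deletion under PBS (-1.43, adjusted p = 0.0443). The floxed call of all 5 was lost with slide as a fixed block (adjusted p 0.081 to 0.212), that of NONMMUT046211 also without floxed PBS array 1 or floxed CoCl2 array 3, and with slide as a block NONMMUT051960 was not called in deleted cells either (adjusted p = 0.0511).

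A rise larger in floxed than in deleted cells was measured for NONMMUT064321, at 1.32, 0.84 and 1.39 in floxed PBS and 4.20, 3.87 and 4.29 in floxed CoCl2, and at 0.91, 0.71 and 0.45 in deleted PBS and 0.87, 2.86 and 2.25 in deleted CoCl2. With CoCl2 the floxed level rose by 2.94 (SE 0.40, limma adjusted p = 0.00241) and the deleted level by 1.30 (adjusted p = 0.0167), and the difference was not called (adjusted p = 0.0582). Its floxed call was lost with slide as a fixed block (adjusted p = 0.0671). Among transcripts well above background on no floxed PBS array, NONMMUT035742 was at least 6.16-fold and NONMMUT048310 at least 4.51-fold higher; the call of NONMMUT048310 was lost with slide as a fixed block (adjusted p = 0.0636). NONMMUT035742 rose in both genotypes, by a measured 3.76 in floxed and 2.39 in deleted cells, with a called difference (adjusted p = 0.0344) that has no measured size.

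Of the largest falls in floxed cells among transcripts well above background on every array of both groups, NONMMUT034186 fell by 2.41, NONMMUT043333 by 2.31, NONMMUT001388 by 2.22 and NONMMUT016849 by 2.15. All 4 also fell in deleted cells, NONMMUT016849 by 3.42. NONMMUT016849 stood at 0.00063, -0.052 and 0.14 in floxed PBS and -2.64, -1.72 and -1.996 in floxed CoCl2. Its floxed call was lost without any 1 of the floxed PBS arrays or floxed CoCl2 array 1 or 3, that of NONMMUT001388 without floxed CoCl2 array 3, and that of NONMMUT043333 without any 1 of 6 arrays (floxed PBS 2 and 3, the 3 of floxed CoCl2 and deleted PBS 1). With slide as a fixed block none of the 4 was called in floxed cells (adjusted p 0.0969 to 0.262). NONMMUT036116 was at least 4.73-fold lower, NONMMUT001378 at least 4.40-fold and NONMMUT009212 at least 2.11-fold lower with CoCl2 in floxed cells. NONMMUT036116 entered the test through the floxed PBS arrays alone, the group in which it was high. The call of NONMMUT001378 was lost without floxed PBS array 1 or 2 or floxed CoCl2 array 2 or 3 and with slide as a fixed block (-1.70, adjusted p = 0.414).

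**Figure D3:**
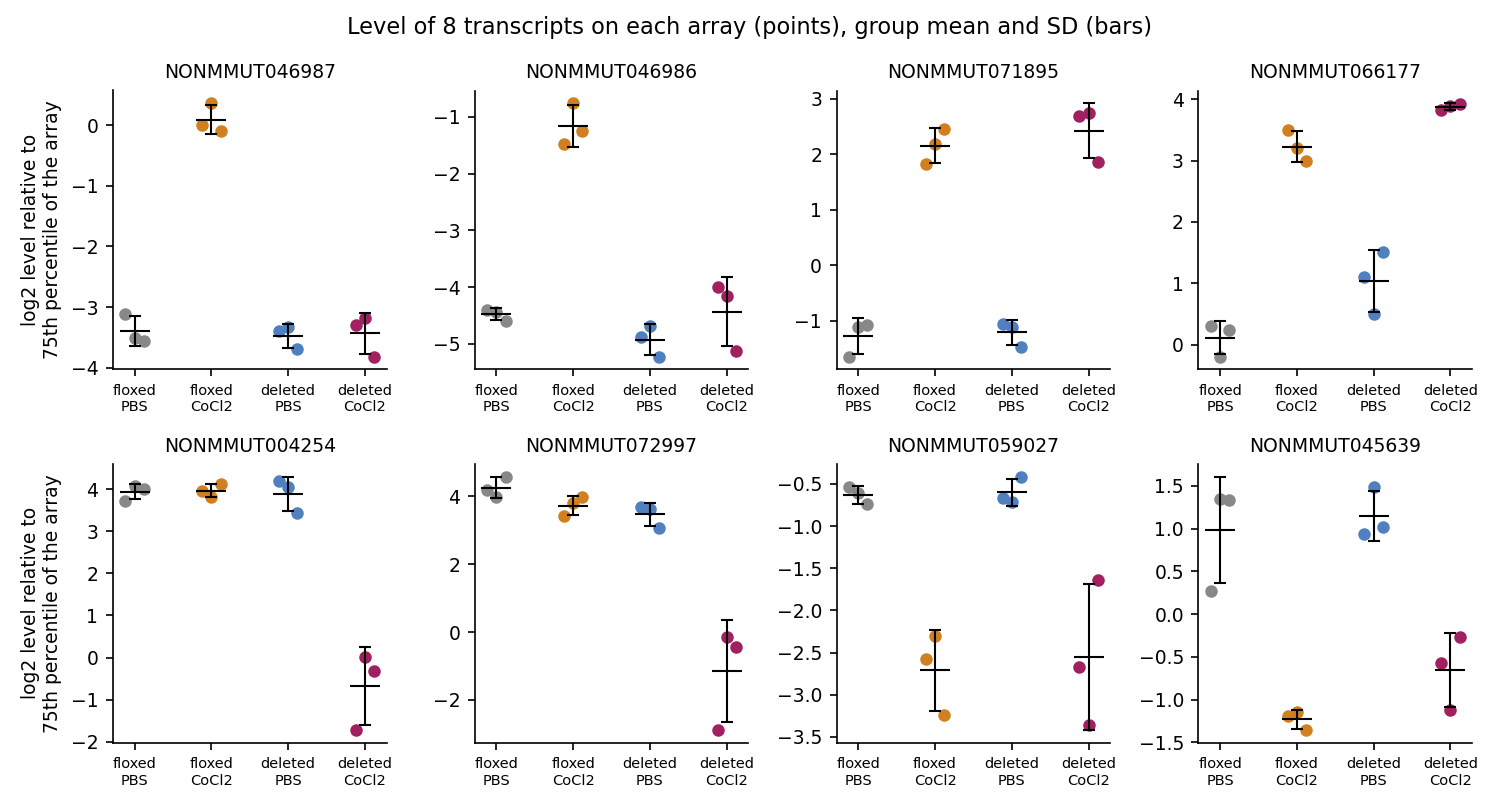
Log2 level relative to the 75th percentile of the array (vertical axes) of 8 transcripts in the 4 groups (horizontal axes); points are arrays, and bars are the group mean with its SD. NONMMUT046987 and NONMMUT046986 are high in floxed CoCl2 alone, NONMMUT071895 and NONMMUT066177 are high in both CoCl2 groups, NONMMUT004254 and NONMMUT072997 are low in deleted CoCl2 alone, and NONMMUT059027 and NONMMUT045639 are low in both CoCl2 groups.

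A pair of transcripts with neighbouring catalogue numbers rose in floxed cells and was not called in deleted cells. NONMMUT046987 had levels of -3.12, -3.51 and -3.56 in floxed PBS and of -0.00041, 0.36 and -0.10 in floxed CoCl2. In deleted PBS it stood at -3.40, -3.32 and -3.69, and in deleted CoCl2 at -3.30, -3.17 and -3.82, where 1 of the 3 arrays was well above background. The 3 floxed CoCl2 arrays lay over 3 log2 units above the other 9, which overlapped. In floxed cells limma gave a change of 3.48 (SE 0.21, adjusted p = 3.25e-05) and in deleted cells one of 0.042 (SE 0.21, 95% interval -0.42 to 0.51). The difference of the 2 changes was -3.44 (SE 0.30, adjusted p = 0.000364). Both calls held under each alternative in which the transcript was tested, with values from -3.64 to -2.15 for the difference.

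NONMMUT046986, the entry before it, was well above background on the 3 floxed CoCl2 arrays (-1.48, -0.76 and -1.24) and on none of the other 9. Where a transcript was dim on every array of a group, its fold is a lower limit. Each dim array then counted with its own signal or with the lowest signal of any probe well above background on it, whichever was higher, and the bright group's mean was divided by the mean of these. By this bound NONMMUT046986 was at least 7.74-fold higher in floxed CoCl2 than in floxed PBS (limma adjusted p = 0.000226), with measured means of -1.16 and -4.48. It entered the test through the floxed CoCl2 arrays alone, the group in which it was high. In deleted cells the measured change was 0.50 (adjusted p = 0.166), and the difference of the changes was -2.82 (SE 0.41, adjusted p = 0.00218), a call that was lost with slide as a fixed block (adjusted p = 0.149). Of the nearest tested entries, NONMMUT046984 changed by -0.35 and NONMMUT046991 by 0.20 in floxed cells (adjusted p = 0.607 and 0.785), and neither was called.

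In all, 22 of the transcripts that rose with CoCl2 in floxed cells had a called difference between the genotypes. Of these 22, 10 were not called in deleted cells, and these 10 were picked out after the values were seen. As shares of the 382 rises, the 22 and the 10 are 5.76% and 2.62%. Other probes gave 6.51% and 1.44% of 1183 rises. Beside the pair above the 10 were NONMMUT068527 with a measured change of 2.76, NONMMUT009487 with 2.82, NONMMUT031126 with 1.20, NONMMUT009235 with 1.32, NONMMUT021088 with 0.89, NONMMUT053647 with 0.95, NONMMUT003541 with 1.01 and NONMMUT020446 with 0.61. NONMMUT068527 and NONMMUT009487 were well above background on no floxed PBS array, so their changes have no measured size, and NONMMUT053647 was on 1 floxed PBS and 2 floxed CoCl2 arrays. NONMMUT068527 entered the test through the floxed CoCl2 arrays alone. NONMMUT009487 was already high in deleted PBS (-2.21, -2.69 and -2.52 against -5.31, -5.52 and -4.06 in floxed PBS, a measured change of 2.49 with adjusted p = 0.0443) and changed by 0.63 there with CoCl2 (adjusted p = 0.241). Each of these 8 lost 1 of its calls without at least 1 single array, and over the 8 these were every floxed array, deleted PBS arrays 1 and 2 and deleted CoCl2 arrays 1 and 3. All 8 lost, with slide as a fixed block, both the floxed call (adjusted p 0.166 to 0.484) and the difference, the adjusted p of which reached 0.587. NONMMUT031126, NONMMUT009235 and NONMMUT021088 lost the floxed call (0.0508 to 0.0753) with slide as a random block, and NONMMUT068527, NONMMUT009487, NONMMUT009235 and NONMMUT003541 the difference (0.0551 to 0.111). With the replicate number as a block within genotype, NONMMUT020446 lost its floxed call (adjusted p = 0.0787) and NONMMUT003541 its difference (adjusted p = 0.0573).

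Of the transcripts that fell in floxed cells, 26 had a called difference and 16 of these were not called in deleted cells. As shares of the 316 falls these are 8.23% and 5.06%; other probes gave 9.39% and 7.72% of 1619 falls. All 16 lost, with slide as a fixed block, both the floxed call (adjusted p 0.091 to 0.523) and the difference (0.245 to 0.694), and with slide as a random block 7 lost the floxed call and 13 the difference. The 2 with the largest difference have adjacent numbers. NONMMUT046222 had levels of -2.44, -2.16 and -2.23 in floxed PBS and -3.13, -3.50 and -5.03 in floxed CoCl2, a fall of 1.61 (limma adjusted p = 0.035), while its deleted PBS and deleted CoCl2 arrays all lay between -2.81 and -2.15. NONMMUT046221 fell by 1.41 (adjusted p = 0.0463) and changed by 0.25 in deleted cells, and NONMMUT046226, 4 numbers further on, fell by 0.87 (adjusted p = 0.0304) and changed by 0.056 in deleted cells. Floxed CoCl2 array 3 was the lowest array for all 3 of these. On the 3 floxed CoCl2 arrays NONMMUT046222 was well above background on 2 and NONMMUT046221 on 1. All 3 transcripts were among those that lost both calls with slide as a random block (floxed adjusted p = 0.0719, 0.093 and 0.0602). The floxed call of NONMMUT046222 was lost without any 1 of the floxed PBS arrays, floxed CoCl2 array 2 or deleted PBS array 1, and that of NONMMUT046221 without any 1 array other than floxed CoCl2 array 1.

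**Figure D4:**
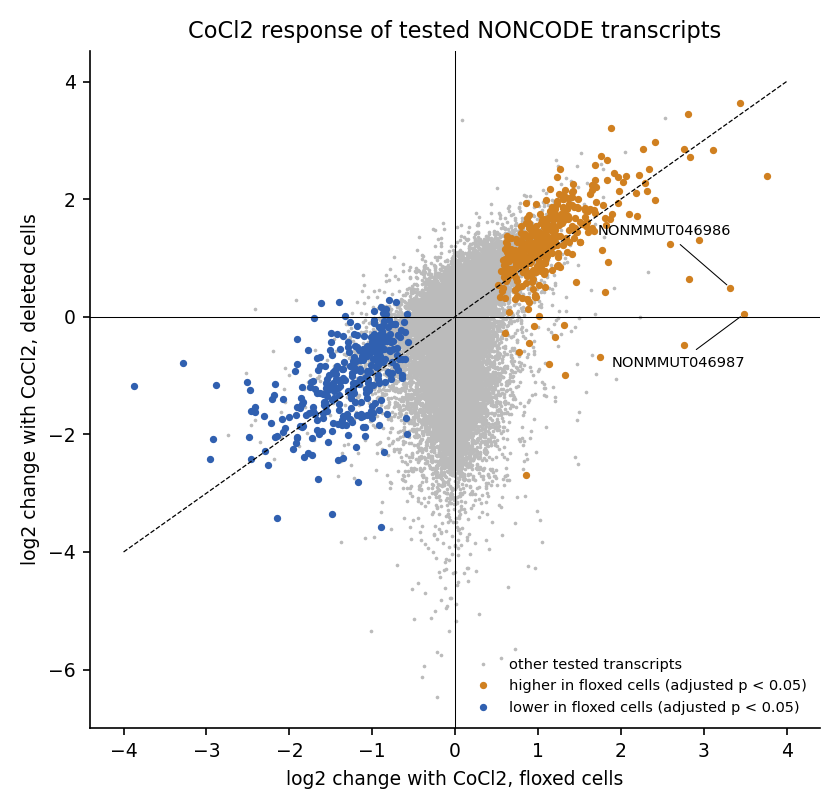
Log2 change with CoCl2 in floxed cells (horizontal axis) against that in deleted cells (vertical axis) for the tested NONCODE transcripts; the dashed line marks equal change. Transcripts that rose in floxed cells (orange) lie mostly above 0 on the vertical axis, where 348 of 382 were called, while NONMMUT046987 and NONMMUT046986 lie near 0 there.

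In deleted cells CoCl2 changed 10843 of the 20097 tested transcripts. Of these, 3310 rose and 7533 fell, where 20.1% of all probes tested rose and 32.7% fell. The median change was -0.28 over the transcripts and -0.13 over all probes tested. Set beside other probes of like signal, 11.504% of all transcripts rose against 12.9%, and 26.2% fell against 23.6%. Of those that fell, 2817 (37.4%) were well above background on no deleted CoCl2 array, so that their size is a bound. The like share of other probes is not given here. The balance of rises and falls followed the scaling: quantile normalization gave 3901 rises and 5285 falls, normexp with quantile normalization 4006 and 4784, the 75th percentile of the probes detected on all 12 arrays 2101 and 8685, and the 6 E1A probes 864 and 9639. Among the 12012 transcripts detected on all arrays, 3144 rose and 2722 fell. Without the detection filter 6466 rose and 7829 fell. With slide as a fixed block, 995 rose and 3692 fell. Within slide 3, which sets the 3 deleted CoCl2 arrays against deleted PBS array 3, the median change was -0.27. There 3308 of the 3310 and 7526 of the 7533 had the direction of the call, but these arrays also took part in the call.

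The largest falls among detected transcripts were of transcripts that stood high in the other 3 groups. NONMMUT004254 had levels of 3.73, 4.09 and 4.02 in floxed PBS, 3.96, 3.81 and 4.12 in floxed CoCl2 and 4.20, 4.05 and 3.43 in deleted PBS, and of -1.73, 0.016 and -0.31 in deleted CoCl2. The 9 arrays outside deleted CoCl2 spanned less than 1 log2 unit. It fell by 4.57 with CoCl2 in deleted cells (SE 0.37, limma adjusted p = 1.96e-05) and changed by 0.019 in floxed cells, with a difference of -4.59 (SE 0.53, adjusted p = 0.000985).

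NONMMUT072997 fell by 4.62, from 3.70, 3.62 and 3.08 to -2.89, -0.14 and -0.44. NONMMUT036642 fell by 4.04, NONMMUT010481 by 4.03 and NONMMUT038533 by 3.88. Deleted CoCl2 array 1 was the lowest array for each of these 5. Their calls in deleted cells held without any 1 array and with slide as a block.

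A further 3 transcripts were below the detection mark on the deleted CoCl2 arrays alone. NONMMUT037415, at 2.83, 2.73 and 1.62 in deleted PBS, was at least 51.3-fold lower with CoCl2 (limma adjusted p = 3.2e-06; measured means 2.39 and -4.07). NONMMUT060699 was at least 14.1-fold lower and NONMMUT012924 at least 13.1-fold lower. In floxed cells the 3 changed by -0.22, -0.40 and -0.071, and none was called. The 5 largest rises in deleted cells, among transcripts well above background on every array of both groups, were those of NONMMUT071895, NONMMUT045070, NONMMUT010574 and NONMMUT066177, described above, and of NONMMUT033457, which rose by 3.38 (SE 0.66, adjusted p = 0.00161) and in floxed cells changed by 2.53 (adjusted p = 0.0518).

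Deletion of Hif1a without CoCl2 gave few calls, and these rested on single arrays. Of 20097 transcripts, 85 were higher and 229 lower in deleted PBS than in floxed PBS, where 0.533% of all probes tested were higher and 0.946% lower. The median change was -0.087 over the transcripts and 0.015 over all probes. The total of 314 became 0 without floxed PBS array 1 or 2 or deleted PBS array 1 or 3, 75 without floxed PBS array 3, 15 without deleted PBS array 2, 8 or 5 without floxed CoCl2 array 2 or 3, and 976, 784 or 876 without floxed CoCl2 array 1 or deleted CoCl2 array 1 or 2. At an unadjusted p below 0.05, 5318 transcripts passed. No slide held both groups. With slide as a random block 1 was higher and 2 were lower, with slide as a fixed block 35 and 479. The split moved with the scaling, from 12 higher and 6 lower with all 10 E1A probes to 87 and 960 with the 75th percentile of the probes detected on all arrays, 50 and 1122 with the 6 E1A probes, 246 and 407 with quantile normalization, 389 and 953 with normexp and quantile normalization.

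Among transcripts well above background on every array of both groups, whose levels do not overlap, NONMMUT035068 had the largest rise with the deletion, at -2.14, -2.79 and -2.34 in floxed PBS and -0.11, -0.44 and -0.57 in deleted PBS, a change of 2.05 (SE 0.24, limma adjusted p = 0.0218). It was also 2.50 higher in deleted than in floxed cells under CoCl2 (adjusted p = 1.12e-05). NONMMUT035065, 3 catalogue numbers away, was 1.59 higher under PBS (adjusted p = 0.0306) and 2.37 higher under CoCl2 (adjusted p = 1.04e-05). NONMMUT000085, NONMMUT033105 and NONMMUT023685 were higher by 1.89, 1.77 and 1.75 under PBS. NONMMUT033105 had levels of -0.86, -1.90 and -0.78 in floxed PBS, -1.26, -1.54 and -1.48 in floxed CoCl2, 0.87, 0.35 and 0.56 in deleted PBS and 0.66, 0.21 and 0.63 in deleted CoCl2, so that all 6 deleted arrays lay above all 6 floxed arrays whatever the treatment.

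The largest falls with the deletion among such transcripts were those of NONMMUT069223 (-2.59, limma adjusted p = 0.0443), NONMMUT040029 (-2.04), NONMMUT002104 (-1.95), NONMMUT016693 (-1.93) and NONMMUT011377 (-1.75). NONMMUT069223 stood at 0.087, 0.44 and 0.90 in floxed PBS and at -1.64, -1.76 and -2.95 in deleted PBS, and was likewise 2.48 lower under CoCl2. Deleted PBS array 3, the one on slide 3, was the lowest of its group for each of these 5. All 10 lost the call under PBS without floxed PBS array 1 or 2 or deleted PBS array 1 or 3, and 9 of them, all but NONMMUT035068, also without floxed CoCl2 array 3, without deleted PBS array 2 and with slide as a random block (adjusted p 0.0554 to 0.0665). NONMMUT040029 was in addition lost without deleted CoCl2 array 3. With slide as a fixed block, NONMMUT000085, NONMMUT033105, NONMMUT023685, NONMMUT002104 and NONMMUT011377 lost the call too (adjusted p 0.0706 to 0.291). With the replicate number as a block, NONMMUT040029, NONMMUT016693 and NONMMUT011377 were no longer called (adjusted p = 0.0522, 0.0524 and 0.0543). Among transcripts detected in 1 of the 2 groups, the largest bounds were a 2.31-fold rise of NONMMUT052824 and a 3.12-fold fall of NONMMUT049375, each a lower limit. The call of NONMMUT052824 was lost without any 1 of 7 arrays and with slide as a fixed (adjusted p = 0.331) or random block (0.0658). That of NONMMUT049375 was lost without any 1 of 9 arrays, and with slide as a random block (0.0655) or the replicate number as a block (0.0543). NONMMUT052824 entered the test through the deleted PBS arrays alone.

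Under CoCl2 the genotypes differed in most tested transcripts, but not with slide as a fixed block, where 524 were higher and 4564 lower in deleted cells. Without that block the counts were as follows. Of 20097, 4478 were higher and 8686 lower in deleted than in floxed cells, where 31.9% of all probes tested were higher and 36.0% lower. The median change was -0.27 over the transcripts and 0.063 over all probes tested, and 0.19 over the other probes. Set beside other probes of like signal, 15.6% of all transcripts were higher against 20.9%, and 30.2% lower against 25.8%. No slide held both groups. The split ran from 1266 higher and 9635 lower with the 6 E1A probes and 1872 and 10070 with the 75th percentile of the probes detected on all arrays, to 5706 and 7008 with quantile normalization, 5720 and 6796 with normexp and quantile normalization and 6915 and 6693 with all 10 E1A probes; among transcripts detected on all arrays it was 4211 and 3235. The median of the transcripts lay below that of the other probes under each of these 5 scalings and the one used here, by 0.17 to 0.47 log2 units.

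NONMMUT060183 had the largest fall among detected transcripts, with 2.60, 4.34 and 3.96 in floxed CoCl2 and -2.47, -0.99 and -1.95 in deleted CoCl2, a difference of -5.43 (SE 0.61, limma adjusted p = 2.58e-05). NONMMUT072997, NONMMUT048429, NONMMUT073746 and NONMMUT004254 followed, with -4.89, -4.70, -4.69 and -4.64. Among transcripts below the detection mark on the deleted CoCl2 arrays, NONMMUT033990 was at least 65.9-fold lower, NONMMUT037415 at least 64.1-fold and NONMMUT009285 at least 34.9-fold.

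Among transcripts well above background on every array of both groups, whose levels do not overlap, NONMMUT074771 had the largest excess in deleted cells under CoCl2, with levels of -1.37, -3.61 and -1.23 in floxed CoCl2 and 1.11, 0.88 and 0.69 in deleted CoCl2, a difference of 2.97 (SE 0.79, limma adjusted p = 0.00612). Catalogue neighbours of it were also among the 5 largest: NONMMUT074783 was 2.57 higher and NONMMUT074769 2.54 higher. In floxed PBS, array 3 stood above the other arrays for all 3 of these, at -0.79 against -3.93 and -3.92 for NONMMUT074771, and in floxed CoCl2 array 2 stood below the others. NONMMUT017666 was 2.60 higher and NONMMUT059011 2.51 higher. With slide as a fixed block these 5 were not called (adjusted p 0.0753 to 0.286). NONMMUT059826, well above background on no floxed CoCl2 array, was at least 3.56-fold higher, a call that was also lost with slide as a fixed block (adjusted p = 0.358).

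The CoCl2 effect itself differed between the genotypes for 4446 transcripts. It was lower in deleted cells for 4215 and higher for 231, where 17.7% of all probes tested were lower and 2.84% higher. The 4215 had a median change of 0.043 in floxed and -1.57 in deleted cells, and 1871 of them (44.4%) were well above background on no deleted CoCl2 array. This share is not given here for other probes. The 231 had medians of -0.014 and 0.85. The count of 4446 became 84 with slide as a fixed block, which leaves 1 floxed CoCl2 and 1 deleted PBS array to compare within a slide. It became 2654, 2459, 2626, 2433 or 2468 without floxed PBS array 2, floxed CoCl2 array 2 or 3, or deleted PBS array 1 or 2. With quantile normalization the difference was lower for 1981 and higher for 277, and without the detection filter lower for 4253 and higher for 2321.

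Among the transcripts detected on all 12 arrays, the highest differences were those of NONMMUT023646 (1.71), NONMMUT047674 (1.68), NONMMUT021187 (1.53), NONMMUT014035 (1.49) and NONMMUT042998 (1.49). NONMMUT047674 stood at -0.85, -0.65 and -0.66 in floxed PBS, -0.30, -0.18 and -0.16 in floxed CoCl2, -0.52, -0.61 and -0.66 in deleted PBS and 1.83, 1.17 and 1.78 in deleted CoCl2. It rose by 2.19 in deleted cells and changed by 0.51 in floxed cells (limma adjusted p = 0.155), and its difference (SE 0.25, adjusted p = 0.00263) was lost only with slide as a fixed block; each of the other 4 was also lost without 1 of 5 to 7 single arrays, floxed CoCl2 arrays 2 and 3 and deleted PBS array 1 among them. The lowest among the same transcripts were NONMMUT004254, NONMMUT010481 (-4.20), NONMMUT072997 (-4.11), NONMMUT036642 (-3.998) and NONMMUT073645 (-3.997). NONMMUT073645 stood at 1.12, 1.05 and 1.64 in floxed PBS and 2.75, 2.56 and 2.96 in floxed CoCl2, against 1.84, 1.78 and 1.55 in deleted PBS and -2.12, -0.020 and -0.21 in deleted CoCl2, so that the CoCl2 arrays lay above the PBS arrays in floxed cells and below them in deleted cells. The floxed change of 1.49 was not called (adjusted p = 0.0795). With slide as a fixed block none of these 5 lowest differences was called (adjusted p 0.0661 to 0.277).

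Transcripts with consecutive catalogue numbers had a weak tendency to change alike. Over the 6272 pairs of tested transcripts whose numbers differ by 1, Pearson's r of the log2 change was 0.395 for CoCl2 in floxed cells, 0.344 for CoCl2 in deleted cells, 0.292 for deletion under PBS, 0.300 for deletion under CoCl2 and 0.265 for the difference of the CoCl2 effects. These correlations are across transcripts of the same 12 arrays and are a description. For CoCl2 in floxed cells r was 0.283 at a distance of 2 numbers, 0.131 at 5, 0.0998 at 10 and -0.0039 at 20, and it stayed between -0.013 and 0.0064 at 50 to 1000. The correlation of the levels themselves was 0.112 at a distance of 1. The probes of such pairs lay a median of 257 rows apart on the array, and those of pairs 1000 numbers apart lay 253 rows apart. Whether neighbouring entries are isoforms of 1 locus, or share sequence that either probe would bind, is not known from these names.

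**Figure D5:**
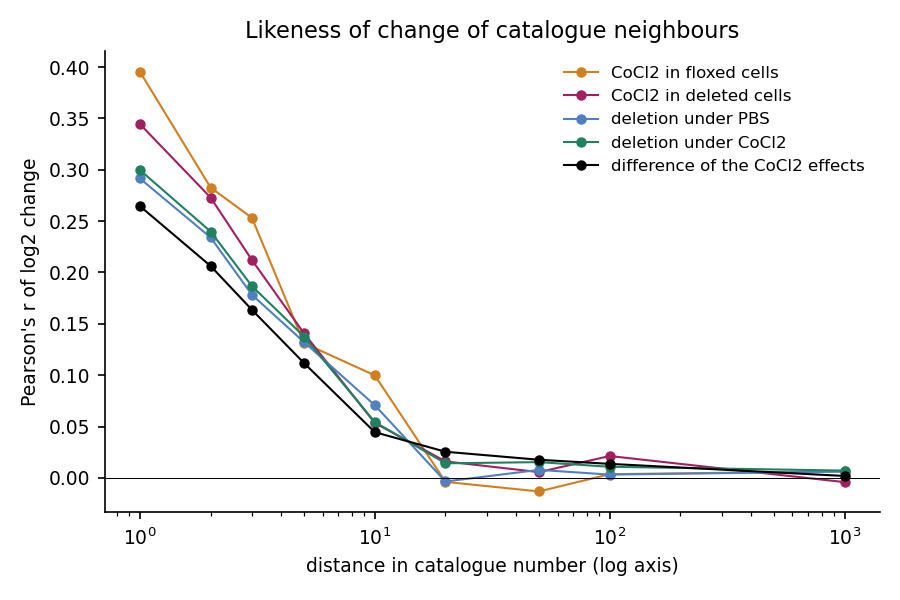
Pearson's r of the log2 change (vertical axis) between tested transcripts against the distance of their catalogue numbers (horizontal axis, log scale), with 1 line for each of the 5 comparisons. At a distance of 1 the values run from 0.265 to 0.395, and from 20 on they lie close to 0.

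In most comparisons called entries also stood next to each other. Of the 130 pairs whose first entry rose with CoCl2 in floxed cells, the next entry also rose in 32 (24.6%), where 1.95% of all second entries rose; at a distance of 1000 numbers it was 1 of 102 (0.980%). For falls the share was 19 of 100 (19.0%, against 1.71%). In deleted cells it was 43.9% of 1142 rises, against 18.8% of all second entries, and 49.5% of 2105 falls, against 33.0%. For deletion under CoCl2 it was 41.5% of 1538 higher entries, against 25.4%, and 53.7% of 2428 lower entries, against 38.2%. Lower differences of the CoCl2 effects gave 346 of 1154 (30.0%, against 18.0%). For deletion under PBS it was 1 of 26 rises (3.85%, against 0.510%) and 1 of 58 falls (1.72%, against 1.05%), and for higher differences of the CoCl2 effects 2 of 64 (3.13%, against 1.40%), each resting on 1 or 2 pairs. No test was made of these shares. Uninterrupted runs of called entries in floxed cells reached a length of 3, and those of deleted cells under CoCl2 a length of 5.

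The run NONMMUT006557, NONMMUT006558 and NONMMUT006559 rose by 1.35, 1.37 and 1.56 with CoCl2 in floxed cells (limma adjusted p = 0.0156, 0.0118 and 0.00992) and by 1.72, 1.92 and 1.85 in deleted cells. Their levels differed, with floxed PBS values from 1.61 to 2.52 for the first and from -1.22 to -0.28 for the third, while the changes were alike. The run from NONMMUT021554 to NONMMUT021558 rose in deleted cells by 0.92, 0.87, 1.61, 1.59 and 2.15; in floxed cells NONMMUT021555 changed by 0.087 (adjusted p = 0.956) and the other 4 rose by 0.90 to 1.51. The run NONMMUT034431 to NONMMUT034433 fell by 1.46, 1.61 and 1.39 in floxed cells and by 1.21, 1.94 and 1.18 in deleted cells, and the run NONMMUT063995 to NONMMUT063997 by 0.78, 1.04 and 1.23 and by 0.98, 1.14 and 1.25. Among the first run, NONMMUT021556 to NONMMUT021558 and the last 2, the floxed call of NONMMUT034431 alone held without any 1 array; each of the others was lost without at least 2 arrays, among them floxed PBS array 2 or 3. The floxed call was lost with slide as a fixed block for all 9 members of the first run and the last 2, NONMMUT034431 included (adjusted p 0.104 to 0.455).

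Other runs were called with CoCl2 in deleted cells and not in floxed cells. NONMMUT035309 to NONMMUT035313 rose in deleted cells by 1.12, 1.15, 0.97, 0.64 and 1.11. Their floxed changes were 0.52, 0.65, 0.76, 0.24 and 0.17, and the difference between the genotypes was called for none of the 5 (limma adjusted p 0.116 to 0.619). The deleted-cell calls of NONMMUT035311 and NONMMUT035313 were lost with slide as a fixed block (adjusted p = 0.127 and 0.36). The call of NONMMUT035313 was also lost without deleted PBS array 2, and that of NONMMUT021555 in the run above without deleted PBS array 3. NONMMUT062374 to NONMMUT062378 fell in deleted cells, with measured changes of -0.96, -1.70, -1.6, -3.09 and -2.30; the last 3 were well above background on no deleted CoCl2 array, so that NONMMUT062377 was at least 2.46-fold and NONMMUT062378 at least 1.17-fold lower, and NONMMUT062376 has no bound above 1. The floxed changes lay between -0.37 and 0.31, with none called. The difference between the genotypes was called for the last 4 of the run and not for NONMMUT062374 (adjusted p = 0.0642), and with slide as a fixed block NONMMUT062376 lost its call in deleted cells (adjusted p = 0.0622). In the run NONMMUT072735, NONMMUT072736 and NONMMUT072737 the difference between the genotypes was called for each entry (limma adjusted p = 0.00119, 0.00668 and 0.00702). The first 2 were well above background on no deleted CoCl2 array and the last on 1, so the differences have no exact size. By the bound, NONMMUT072735 was at least 6.42-fold and NONMMUT072736 at least 1.75-fold lower with CoCl2 in deleted cells. The differences of NONMMUT072736 and NONMMUT072737 were lost with slide as a fixed block (adjusted p = 0.246 and 0.198). NONMMUT072735 had measured levels of -0.13, -0.096 and -1.6 in deleted PBS and -5.47, -5.23 and -5.19 in deleted CoCl2, against 0.46 to 1.25 in floxed PBS. In deletion under PBS the runs had 2 entries: NONMMUT041992 and NONMMUT041993 were 1.51 and 1.30 higher, and NONMMUT011870 and NONMMUT011871 were 0.69 and 2.06 lower, with the calls lost without 1 of 7 or 8 arrays.

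Signs of RNA quality did not follow 1 order over the groups. The level of the 3′ probe minus that of the 5′ probe was, for Pgk1, 2.82 ± 0.021 (SD, n = 3) in floxed PBS, 2.72 ± 0.025 in floxed CoCl2, 3.07 ± 0.048 in deleted PBS and 2.67 ± 0.19 in deleted CoCl2, and for Gapdh -2.32 ± 0.016, -1.91 ± 0.13, -2.25 ± 0.091 and -2.12 ± 0.14. Their part in the results above was not tested.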

How the data were processed

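Per the labels' protocols, cRNA was made from total RNA with a one-colour Agilent kit and carried cyanine-3; 12 arrays were scanned. The deposited scanner files hold spot intensity (background-corrected processed signal), extracted with Agilent Feature Extraction 11.5.1.1 per the file headers; version 9.1 is named per the submitters' processing notes. The deposited value table holds log2 values, which differed from the scanner values less the 75th percentile by a constant on each array, to within 0.01, apart from 1 transcript on floxed PBS array 3; how the authors made this table is not stated in the labels or headers, and its values were used as 1 of the alternatives.

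Each array held 49307 spots of the 28773 transcripts (20534 on 2 spots, 8239 on 1). A spot marked as an outlier was dropped where its probe had an unmarked one, the log2 signals were averaged per probe, and the 75th percentile was subtracted. Detection needed all kept spots to be marked. limma 3.58.1 in R 4.3.3 was fitted to 12 arrays with 1 mean per group, no pairing of arrays and 5 contrasts. The script was tested on simulated data. normexp used the median signal, since the mean signal column was not in the files used here. The number of arrays limits the precision.

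The members, lists and tests were chosen with earlier results of these data known. Transcripts were named by rule: the 5 largest rises and falls detected in both groups, with groups that do not overlap, and the 3 largest bounds each way in each of 4 contrasts; the 5 highest and lowest differences of the CoCl2 effects and the 5 largest shared changes each way among those detected on all arrays. Transcripts called in floxed cells alone and runs of catalogue neighbours were added after their values were seen.

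Same-numbered floxed PBS and floxed CoCl2 arrays deviated together (r of deviations from the group means 0.396, 0.414 and 0.452), so the labels' numbers were taken to pair the floxed arrays. Deleted arrays did not all pair (-0.144, 0.285 and 0.235). Values of like size also occurred between floxed CoCl2 and deleted PBS arrays of the same number (-0.405, 0.406 and -0.288). Arrays of different number were not compared, so the pairing is an assumption.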

Additional observations from a re-analysis of the deposited data

Results flagged for a closer look

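The results below were picked out because limma's test of the difference between the CoCl2 changes of deleted and floxed cells passed the adjusted threshold; each value is the change in deleted cells minus that in floxed cells, on the log2 scale. The difference was called for 231 transcripts in the higher and 4215 in the lower direction. Among the transcripts named, 5 had their lowest differences with no deleted CoCl2 array well above background, namely NONMMUT037415 (-6.25), NONMMUT060699 (-5.73), NONMMUT012924 (-5.27), NONMMUT033990 (-5.24) and NONMMUT009285 (-5.18).

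The other transcripts with a lower response in deleted cells that did not belong to those called in floxed cells alone were NONMMUT004254 (-4.59), NONMMUT010481 (-4.20), NONMMUT072997 (-4.11), NONMMUT036642 (-3.998), NONMMUT073645 (-3.997), NONMMUT038533 (-3.95), NONMMUT073746 (-3.93), NONMMUT048429 (-3.59), NONMMUT060183 (-3.41), NONMMUT016693 (-2.33), NONMMUT052824 (-1.81), NONMMUT011377 (-1.78) and NONMMUT035742 (-1.37). Of these, NONMMUT016693 and NONMMUT011377 were well above background on no deleted CoCl2 array, NONMMUT052824 on no array outside deleted PBS and NONMMUT035742 on no floxed PBS array, so that their differences have no exact size. NONMMUT016693, NONMMUT011377 and NONMMUT052824 also had a called change with the deletion under PBS.

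Transcripts that rose in floxed cells and were not called in deleted cells had differences as follows: NONMMUT046987 (-3.44), NONMMUT068527 (-3.24), NONMMUT046986 (-2.82), NONMMUT009487 (-2.19), NONMMUT031126 (-1.54), NONMMUT009235 (-1.46), NONMMUT021088 (-1.34), NONMMUT053647 (-1.10), NONMMUT003541 (-0.99) and NONMMUT020446 (-0.88). Transcripts that fell in floxed cells and were not called in deleted cells were NONMMUT046922 (0.63), NONMMUT019873 (0.88), NONMMUT046226 (0.93), NONMMUT045652 (0.93), NONMMUT000972 (0.95), NONMMUT004295 (0.97), NONMMUT059589 (1.03), NONMMUT010906 (1.07), NONMMUT043958 (1.07), NONMMUT055144 (1.08), NONMMUT063228 (1.19), NONMMUT073304 (1.23), NONMMUT019234 (1.35), NONMMUT016163 (1.53), NONMMUT046221 (1.65) and NONMMUT046222 (1.84). The remaining higher differences were those of NONMMUT042998 (1.49), NONMMUT014035 (1.49), NONMMUT021187 (1.53), NONMMUT047674 (1.68), NONMMUT023646 (1.71) and NONMMUT036116 (2.69). Among these, NONMMUT068527, NONMMUT046986, NONMMUT009487, NONMMUT053647, NONMMUT020446, NONMMUT016163, NONMMUT063228 and NONMMUT036116 were well above background on no array of at least 1 group, so that their values are measured differences and not sizes; in all this held for 17 of the transcripts named.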

How the results depend on the processing

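All counts here are of called transcripts, against 698 for CoCl2 in floxed cells, 10843 for CoCl2 in deleted cells, 314 for deletion under PBS, 13164 for deletion under CoCl2 and 4446 for the difference of the CoCl2 effects. For CoCl2 in floxed cells the count was 326 with 10 E1A probes, 419 with 6, 134 with slide as a fixed block and 435 at 2-fold or more. For CoCl2 in deleted cells it was 5866 among probes detected on all 12 arrays, 4687 with slide as a fixed block and 6274 at 2-fold. For deletion under CoCl2 the same settings gave 7446, 5088 and 7936. For the difference they gave 1279 on all arrays, 84 with slide fixed and 2382 with slide random, and quantile normalization gave 2258 and normexp with it 1670. For deletion under PBS the count was 145 without a filter, 1047 with the 75th percentile of probes detected on all arrays, 653 with quantile normalization, 1342 with normexp, 18 and 1172 with 10 and 6 E1A probes, 514 and 3 with slide fixed and random, 191 at 2-fold and, chosen after seeing the data, 5318 at an unadjusted p below 0.05. Leaving out 1 array at a time gave 196 to 912, 8531 to 11072, 0 to 976, 11608 to 13189 and 2433 to 5708 in the order of the first sentence.

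With the replicate number as a block over all arrays the counts were 671, 10949, 303, 13317 and 4414. With it within genotype, where the numbers were taken to pair arrays, they were 874, 11446 and 4408 for CoCl2 in floxed cells, in deleted cells and their difference. Of 139 named calls the block within genotype lost 7, among them NONMMUT000972 (adjusted p = 0.0533) and NONMMUT046922 (0.0612) in floxed cells and NONMMUT073304 (0.0768), NONMMUT046922 (0.0706) and NONMMUT050219 (0.0504) for the difference; NONMMUT020446 and NONMMUT003541 are given above. The block over all arrays lost 13 of 184.

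Of the 184 named calls, 51 held under every alternative tried, 0 reversed, and the deposited value table and the kept outlier spots lost 0; slide as a fixed block lost 118 and as a random block 55. The offset from probes of like signal was -0.032 with 10 bins and -0.0026 with 50 in floxed PBS. In deleted PBS it was -0.091 with 10 bins, -0.058 with normexp and -0.089 among probes detected in floxed PBS. In deleted CoCl2 it was -0.14, -0.10 and -0.17 under these, and -0.11 matched on 9 arrays. Chosen after seeing the data, detection by any spot gave 73.3% in floxed PBS and 74.0% in deleted PBS, and the share called minus that of like probes was -0.73 points for falls in floxed cells and -0.58 for higher differences without a filter, and -0.99 and -4.96 for rises in deleted cells and for deletion under CoCl2 with 9 arrays matched. The dim signal of the deleted CoCl2 arrays limits what can be measured there.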

Other observations

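The array's control probes for Pgk1, the glycolytic phosphoglycerate kinase and a textbook target of HIF-1α, give the scale of a known response beside these transcripts. The level of its 3′ control probe was 3.81 ± 0.14 (SD, n = 3) in floxed PBS and 5.52 ± 0.15 in floxed CoCl2, and 4.41 ± 0.11 in deleted PBS and 6.12 ± 0.19 in deleted CoCl2. The 3 CoCl2 arrays thus lay above the 3 PBS arrays in cells of either genotype. Control probes were left out of the fit, so no adjusted p belongs to these values.

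Between spots of 1 probe, the median difference of the log2 signal was 0.108 to 0.126 in the 4 groups for detected transcripts and 0.0918 to 0.115 for other detected probes. Between the 3 arrays of a group, the median SD of the level of transcripts detected on all arrays was 0.169 in floxed PBS, 0.196 in floxed CoCl2, 0.174 in deleted PBS and 0.289 in deleted CoCl2, so replicate arrays differed most where fewest transcripts were detected. Other probes gave 0.155, 0.204, 0.153 and 0.253.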
